A study of Mus musculus with 12 samples.

Results

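Liver secretes most of the proteins that carry hormones, vitamins, metals and lipids in plasma. Followed here were 9 genes of plasma proteins, called carriers as a group although some have other roles: Alb, Ttr, Rbp4, Ahsg, Fetub, Hrg, Vtn, Gc and Mug1. Every probe set that names 1 of these symbols and no other was taken, which gave 11 probe sets on the Affymetrix 430A array and 12 on the 430 2.0 array for 8 of the 9 genes, out of 18194 genes named over both arrays. No probe set was annotated to Gc, the vitamin D binding protein, so Gc was not analysed here. Liver RNA was from mice aged 10 weeks. Fah off livers (n = 3) were from Fah knockout mice without NTBC for 14 days. Fah p21 off livers (n = 2 on 430A and n = 2 further livers on 430 2.0) were from mice lacking both Fah and p21, the product of Cdkn1a, without NTBC for the same time. The normal livers on 430A (n = 4) were of unlike mice. Normal 1 and 2 were wildtype, without the drug (water) and with it, normal 3 lacked Fah and normal 4 lacked Fah and p21, the last pair both kept on NTBC. On 430 2.0 the normal group was 1 double knockout liver on NTBC, whose title carries the same replicate number as normal 4. The product of Fah completes the breakdown of tyrosine, and NTBC blocks an earlier step, which keeps Fah knockout mice from accumulating toxic products. Neither the strain nor the sex of the mice was stated in the labels, nor the cells in which the genes were deleted.

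Albumin carries fatty acids, bilirubin and many drugs and holds most of the oncotic pressure of plasma. Rbp4 brings retinol from liver stores to tissues and travels in plasma bound to transthyretin, the product of Ttr, which also carries thyroxine. Fetuin-A (Ahsg) binds calcium phosphate and keeps it in solution, fetuin-B (Fetub) inhibits the proteases that harden the coat of the egg, and the histidine-rich glycoprotein Hrg binds heparin, plasminogen and zinc. These 3 proteins belong to the cystatin superfamily, and in the mouse gene table their genes follow each other, with a noncoding gene between Ahsg and Fetub. Vitronectin (Vtn) holds the plasminogen activator inhibitor PAI-1 in its active form and ties cells to matrix through integrins. Murinoglobulin 1 (Mug1) is a rodent relative of alpha-2-macroglobulin that traps proteases.

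The bases before the start of 5 of these genes are shown. The genes were taken for the largest change (Mug1), for a small change (Alb) and as neighbours of each other (Ahsg, Fetub and Hrg). The sequences are from RefSeq, build GRCm38.p6, 5′ to 3′ on the gene's strand, which is plus for all 5, and capitals mark matches to the motifs named after them. The Mug1 window, 205 bases long, ends where the outermost annotated start of the gene lies, upstream of the start used in the table, and the others hold 250 bases.
Mug1 at chr6:121838291-121838495: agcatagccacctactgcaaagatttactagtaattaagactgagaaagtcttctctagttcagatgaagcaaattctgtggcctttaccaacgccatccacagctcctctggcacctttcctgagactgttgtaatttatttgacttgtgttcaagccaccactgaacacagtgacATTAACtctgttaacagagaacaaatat
Hrg at chr16:22950822-22951071: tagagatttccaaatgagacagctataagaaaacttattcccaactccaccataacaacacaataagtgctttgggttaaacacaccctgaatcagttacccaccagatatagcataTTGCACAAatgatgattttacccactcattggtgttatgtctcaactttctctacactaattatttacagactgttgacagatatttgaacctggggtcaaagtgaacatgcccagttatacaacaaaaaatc
Ahsg at chr16:22891765-22892014: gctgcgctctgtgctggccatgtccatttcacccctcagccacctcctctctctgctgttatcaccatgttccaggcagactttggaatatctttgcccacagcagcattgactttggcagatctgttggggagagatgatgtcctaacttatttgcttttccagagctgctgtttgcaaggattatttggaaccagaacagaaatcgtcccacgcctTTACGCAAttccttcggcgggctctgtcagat
Fetub at chr16:22918132-22918381: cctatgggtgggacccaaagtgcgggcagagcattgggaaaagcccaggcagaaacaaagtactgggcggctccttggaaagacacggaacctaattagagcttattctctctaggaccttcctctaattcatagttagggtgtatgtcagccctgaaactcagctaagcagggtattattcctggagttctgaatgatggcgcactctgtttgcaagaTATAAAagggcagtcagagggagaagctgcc
Alb at chr5:90460620-90460869: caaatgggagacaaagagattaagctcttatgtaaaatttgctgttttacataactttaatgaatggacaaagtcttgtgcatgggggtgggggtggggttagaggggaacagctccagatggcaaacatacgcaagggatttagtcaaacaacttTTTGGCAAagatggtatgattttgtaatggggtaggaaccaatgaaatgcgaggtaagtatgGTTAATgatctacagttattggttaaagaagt
Both strands were searched in the 250 bases before each start for the HNF1 half-site GTTAAT, the C/EBP motif TTGCNNAA, the forkhead motif TGTTTAC and TATAAA. Of 32851 windows of that length in the RefSeq table, 6.43% held GTTAAT, 9.56% TTGCNNAA, 3.17% TGTTTAC and 12.4% TATAAA. The table held windows of 8 of the 9 genes. GTTAAT was found before 4 of these genes, at 32 bases before the Alb start, 73 before the Mug1 start used in the table, 112 before the Vtn start and 52 before the Gc start. TTGCNNAA was found 94 bases before the start of Alb, 32 before Ahsg, 133 before Hrg and 128 before a start of Rbp4. TGTTTAC was found before other starts of Fetub and Rbp4, and TATAAA before Fetub (31 bases), Vtn and Rbp4. No listed motif overlapped another in the printed windows. A match is a run of letters and was not read as a binding site.

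Array scale bears on these genes more than on most, since several of them are among the brightest probe sets. Highest signals were between 13876 and 15649.8 on the Fah off arrays, 12851.5 and 13482 on the Fah p21 off arrays, and between 19864 and 22298 on the normal arrays of 430A. The trimmed mean of the deposited signals was near 349 on all 9 of these arrays. The geometric mean of the 50 brightest probe sets outside these genes was 9709 to 10846 in Fah off livers and 9088 and 9729 in Fah p21 off livers, against 13289 to 14192 in normal livers. Its log2 change against normal livers was -0.43 in Fah off and -0.55 in Fah p21 off livers. These 50 include probe sets of Apoc1 and of Cyp2e1, a hepatocyte marker. A fall shared by hepatocyte RNAs therefore cannot be told apart from array scale by them. Of the 49 tested probe sets with a mean signal above 10000, 36 were lower and 0 higher in Fah off livers (73.5% lower), with a median log2 change of -0.47 and a 10th to 90th percentile of -0.76 to 0.02. Between mean signals of 5000 and 10000, 43.4% of 244 probe sets were lower, with a median of -0.25. Between 1000 and 5000, 25.9% of 2140 probe sets were lower, with a median of 0.01. Unlike the 50 above, these ranges of signal hold carrier probe sets too, with Alb, Rbp4 and Ahsg among those above 10000. Whether the brightest signals were saturated cannot be read from the deposited values. For carriers among the brightest probe sets, a change of the size of this shift cannot be told apart from it. Fah was at 100.8 to 114.2 on all 5 arrays off NTBC, against 181.9 and 233 in the knockouts on NTBC and 6868 and 7120.1 in wildtype livers. The Cdkn1a probe set 1421679_a_at was at 9.5 and 8.2 in Fah p21 off livers, against 989.5 to 1861.5 in Fah off livers. The other Cdkn1a probe set, 1424638_at, was at 1828 and 2059.6 in Fah p21 off livers and at 2814 to 3936 in Fah off livers, against 75.2 to 257.7 in normal livers, and whether it lies in the deleted sequence is not given in the labels.

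**Figure D1:**
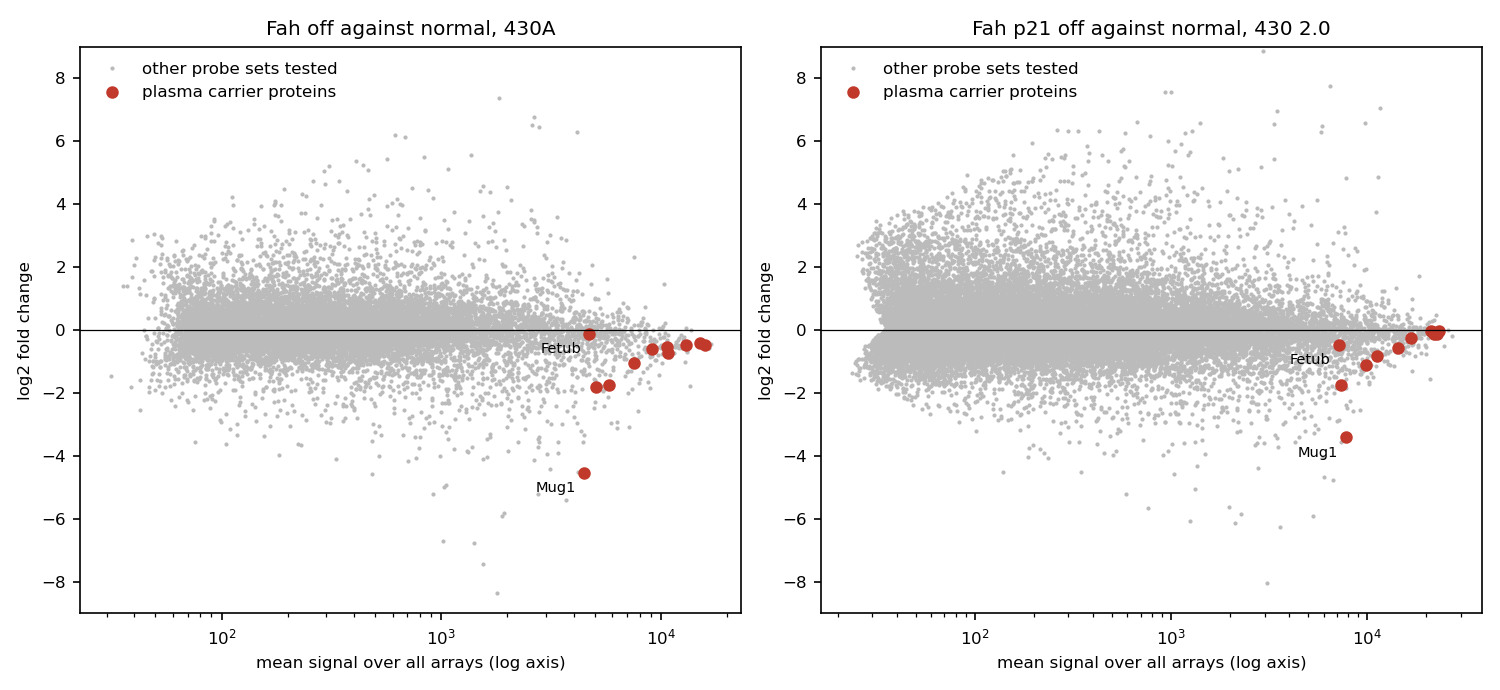
Log2 fold change of each tested probe set against its mean signal over all arrays (log axis), for Fah off against normal on 430A (left) and Fah p21 off against normal on 430 2.0 (right). Grey points are other probe sets and red points are the plasma carrier genes. At the bright end of 430A most points lie below 0, and Mug1 is the lowest of the red points in both panels.

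In Fah off livers 7 of the 8 genes fell against normal livers and 1, Fetub, did not pass. The falls ran from 23.1-fold for Mug1 and 3.34-fold for Hrg, through 2.04-fold for Vtn by its representative probe set, that of highest mean signal, to 1.67-fold for Ahsg, 1.45-fold for Rbp4 and 1.33-fold for Alb, with Ttr at 71.6% of normal by its representative probe set. By probe sets 10 of 11 fell and 0 rose, where 15.4% of the 15309 probe sets tested were lower and 20.1% were higher. Among probe sets of high mean signal the share lower was larger, as given above with the carriers counted in. All 11 passed the filter on dim probe sets. The same 10 were lower in every Fah off liver than in every normal liver, as were 19% of all tested probe sets. The median change over the 8 genes was -0.63, against 0.0045 over all 9196 genes tested. All changes are log2 fold changes ± SE of log2(signal + offset) from limma, with p-values adjusted by Benjamini-Hochberg over all tested probe sets, and a probe set passed under 0.05. In these bulk samples fewer hepatocytes and less RNA per hepatocyte cannot be told apart.

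In Fah p21 off livers all 8 genes and all 11 probe sets fell against normal livers, where 28.4% of probe sets passed, 10.7% as lower and 17.7% as higher. No Fah p21 off liver overlapped the normal range at any of the 11, as was so for 19% of all probe sets on the lower side and 28.4% on the higher. Mug1 fell 12.5-fold and Hrg 3.07-fold, followed by Rbp4 (1.78-fold), Vtn (1.74-fold), Ahsg (1.70-fold), Fetub (1.62-fold), Ttr (1.53-fold) and Alb (1.46-fold). The median over the 8 genes was -0.78, against 0.094 over all genes. This comparison used the same normal livers as that of the Fah off livers.

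The double knockouts were then set against the single knockouts, both off NTBC, which asks whether p21 loss changed these RNAs. By limma 0 of 11 probe sets passed, and 3 had an unadjusted p under 0.05, while 6 of all probe sets passed (0.0392%, with 0.0131% lower and 0.0261% higher). By genes 0 of 8 passed, against 0.0109% of all genes lower and 0.0326% higher, 0.0435% in all. The 3 with a low unadjusted p were, with limma's adjusted p, Mug1 (0.89 ± 0.28, adjusted p = 0.406), Fetub (-0.58 ± 0.19, adjusted p = 0.424) and Rbp4 (-0.30 ± 0.12, adjusted p = 0.561). The 2 Fah p21 off livers lay outside the range of the 3 Fah off livers at 5 of the 11 probe sets. They were below it for Fetub, Rbp4 and 1451580_a_at of Ttr, as at 10.8% of all probe sets, and above it for Mug1 and 1455098_a_at of Vtn, as at 17.1%. A p that misses the threshold does not show that the groups off NTBC were alike.

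**Figure D2:**
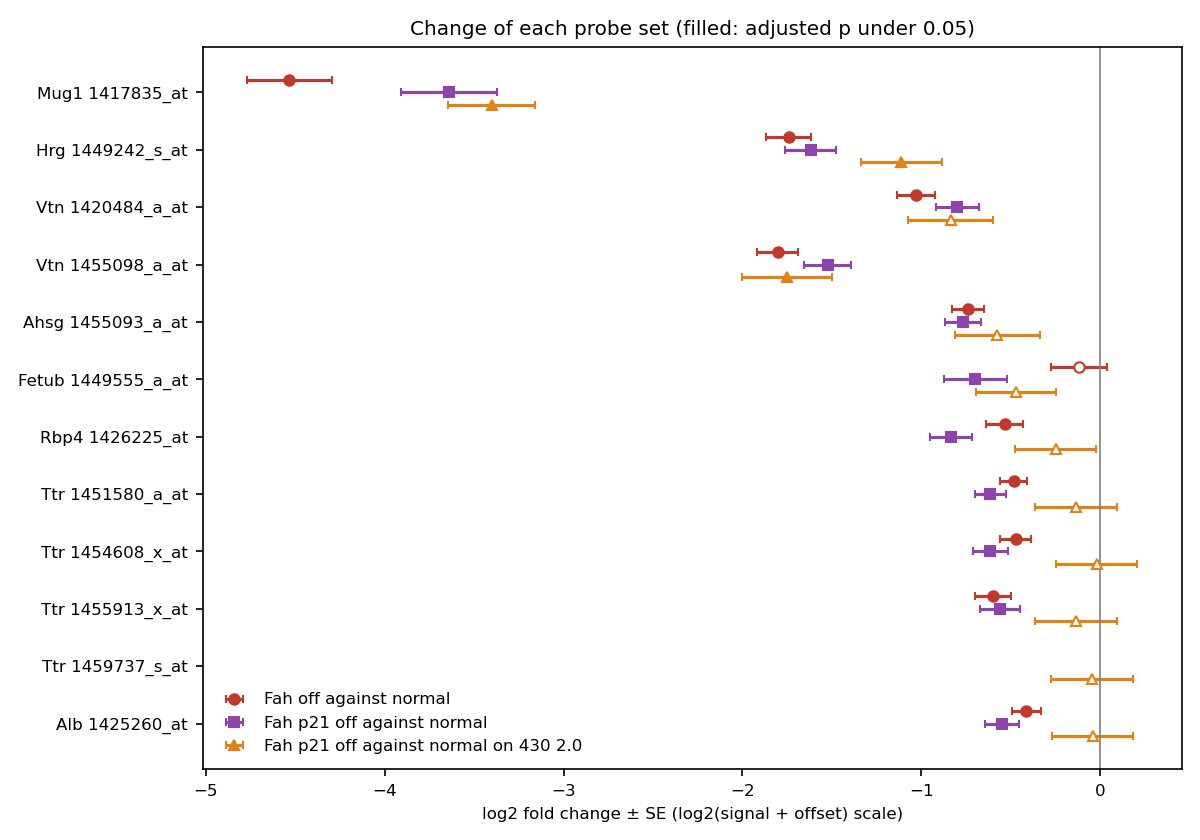
Log2 fold change ± SE of each probe set against normal livers, in Fah off livers (circles) and Fah p21 off livers (squares) on 430A and in Fah p21 off livers on 430 2.0 (triangles). Filled symbols passed an adjusted p under 0.05. Mug1 lies at -4.53, -3.64 and -3.40, and Alb at -0.41, -0.55 and -0.04.

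Mug1 had the largest change of these genes. Its probe set 1417835_at had signals of 575.3, 442.9 and 239.5 in Fah off livers and 656 and 833.1 in Fah p21 off livers, against 9391, 9554, 8609.9 and 9862 in normal livers 1 to 4. No liver off NTBC came near a normal liver, and the normal livers differed by 1.15-fold at most while the Fah off livers differed by 2.40-fold. Mean signal off NTBC was 4.48% of normal in Fah knockouts and 7.96% in double knockouts. The changes were -4.53 ± 0.24 (adjusted p = 3.34e-07) and -3.64 ± 0.27 (adjusted p = 6.75e-06). A second probe set, 1448854_s_at, is annotated to Mug2, Mug1 and a pseudogene together and is outside the rule. It was at 570.0, 429.5 and 219.8 in Fah off livers and 529.2 and 754.5 in Fah p21 off livers, against 8281 to 9355 in normal livers. Mug1 and Mug2 are close copies, so the signal of either probe set is uncertain between them.

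Hrg, the binder of heparin and plasminogen, was at 3015, 2629 and 2766 in Fah off livers and at 3506 and 2654 in Fah p21 off livers, against 8351, 9785.5, 9142 and 10385 in normal livers 1 to 4. Each group off NTBC lay wholly below the normal group, and the groups off NTBC overlapped each other. The changes were -1.74 ± 0.12 (adjusted p = 2.32e-06) and -1.62 ± 0.14 (adjusted p = 1.84e-05).

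Ahsg, the calcium phosphate binder and the neighbour of Fetub, was at 8647, 7565 and 8840.0 in Fah off livers and at 8268 and 8043 in Fah p21 off livers, against 14301, 14016, 14304.5 and 12958 in normal livers. Both groups off NTBC were below every normal liver, with normal 4 the lowest of those. Its changes were -0.74 ± 0.09 (adjusted p = 9.59e-05) and -0.77 ± 0.10 (adjusted p = 0.00028). Among the 50 brightest other probe sets the 10th percentile of change was -0.76 in Fah off and -0.85 in Fah p21 off livers, so Ahsg lay within their range. With quantile normalization the change was -0.36 in Fah off livers (adjusted p = 0.0016) and -0.19 in Fah p21 off livers (adjusted p = 0.0754). With scaling to the 50 brightest it was -0.30 (adjusted p = 0.00969) and -0.22 (adjusted p = 0.0617).

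Fetub, the protease inhibitor that lies between Ahsg and Hrg, stood apart in Fah off livers. It was at 5216, 3936 and 5547.5 in Fah off livers and at 3653 and 2881 in Fah p21 off livers, against 5309, 4506, 6365.5 and 5043 in normal livers. The Fah off livers overlapped the normal livers, with Fah off 2 below them, and both Fah p21 off livers lay below all normal livers. The change was -0.12 ± 0.16 (adjusted p = 0.594) in Fah off livers and -0.70 ± 0.18 (adjusted p = 0.0133) in Fah p21 off livers. The second call ended without Fah p21 off 2 (-0.53, adjusted p = 0.147), with normal 4 alone as control (-0.63, adjusted p = 0.111) and with quantile normalization (-0.39, adjusted p = 0.104). Without Fah off 2 the change in Fah off livers was 0.03.

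Vtn, which stabilises PAI-1, was read by probe sets of unequal response. The first, 1420484_a_at, was at 5182, 5387 and 4445 in Fah off livers and at 6492 and 5288 in Fah p21 off livers, against 9895, 9928, 10569 and 10399.8 in normal livers. The other, 1455098_a_at, was at 2777, 2307 and 2035 in Fah off livers and at 2935.5 and 2779 in Fah p21 off livers, against 8243, 8176, 8052 and 8449 in normal livers. Both separated the groups off NTBC from normal livers with no overlap. The first changed by -1.03 ± 0.11 (adjusted p = 3.14e-05) in Fah off livers and -0.80 ± 0.12 (adjusted p = 0.000639) in Fah p21 off livers, and the other by -1.80 ± 0.11 (adjusted p = 1.21e-06) and -1.52 ± 0.13 (adjusted p = 1.64e-05). Both passed, and 1455098_a_at gave the larger change in each comparison. In Fah p21 off livers 1420484_a_at no longer passed after quantile normalization (-0.28, adjusted p = 0.142).

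Rbp4, the retinol carrier, was at 9008, 8383 and 10412 in Fah off livers and at 6953 and 8047 in Fah p21 off livers, against 13710.1, 14078, 13482 and 12239.5 in normal livers. The groups off NTBC lay below the normal group, and the Fah p21 off livers below the Fah off livers. The changes were -0.53 ± 0.10 (adjusted p = 0.00218) and -0.84 ± 0.12 (adjusted p = 0.000413). With quantile normalization neither change passed (-0.10 and -0.25, adjusted p = 0.413 and 0.0826).

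Ttr, the partner of Rbp4, was read by 3 probe sets on 430A. Probe set 1451580_a_at was at 14179, 13224 and 13893 in Fah off livers and at 12865 and 12263.5 in Fah p21 off livers, against 19879, 19747, 18889 and 18435 in normal livers. Probe set 1454608_x_at was at 11449, 10550.2 and 11808 in Fah off livers and at 10773 and 9673.5 in Fah p21 off livers, against 15673, 15249.8, 16562 and 15030.3 in normal livers. Every liver off NTBC was below every normal liver in both. Probe set 1455913_x_at was at 7882.5, 6553.5 and 7812 in Fah off livers and at 7828 and 7372 in Fah p21 off livers, against 11681.5, 12033, 10790.0 and 10364 in normal livers. All 3 separated the groups without overlap, with changes of -0.48 ± 0.08, -0.47 ± 0.09 and -0.60 ± 0.10 in Fah off livers and -0.61 ± 0.09, -0.61 ± 0.10 and -0.56 ± 0.11 in Fah p21 off livers, all with adjusted p of at most 0.00396. With normal 4 alone as control 1455913_x_at no longer passed in Fah p21 off livers (-0.45, adjusted p = 0.0862), nor did Fetub, which left 9 of the 11 probe sets lower. The change of 1451580_a_at after quantile normalization was -0.03 (adjusted p = 0.669) in Fah off livers and 0.02 (adjusted p = 0.824) in Fah p21 off livers.

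Alb was at 13616, 12632 and 13806 in Fah off livers and at 12746 and 11573 in Fah p21 off livers, against 17239.9, 17948, 18855 and 17061 in normal livers 1 to 4. The groups off NTBC lay below the normal group and overlapped each other. The changes were -0.41 ± 0.08 (adjusted p = 0.00251) and -0.55 ± 0.09 (adjusted p = 0.00134), about those of the 50 brightest other probe sets (-0.43 and -0.55). After quantile normalization the changes were -0.01 (adjusted p = 0.892) and 0.06 (adjusted p = 0.575).

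**Figure D3:**
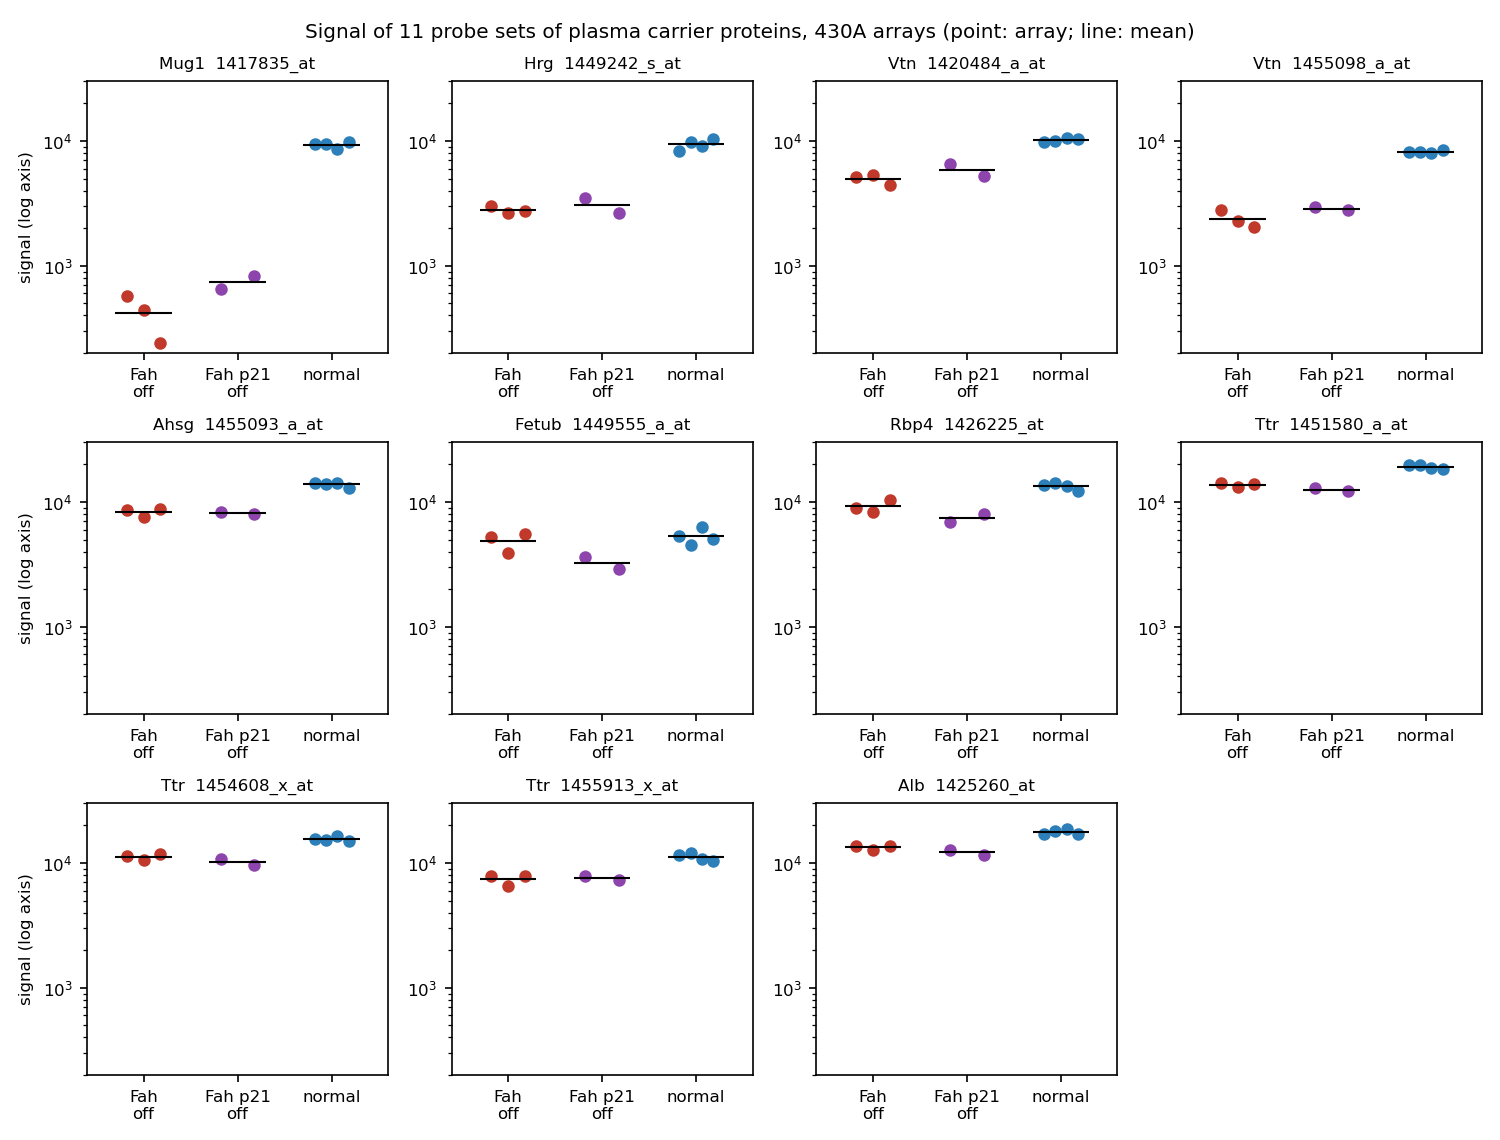
Signal of each of the 11 probe sets on the 9 arrays of 430A, on a log axis common to all panels, with Fah off, Fah p21 off and normal livers from left to right. Points are arrays and lines are group means. Groups off NTBC lie below the normal group in every panel except that of Fetub, where the Fah off and normal livers overlap.

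Ratios of the deposited signals to Alb on the same array do not change when an array is multiplied by a single factor, though quantile normalization can change them and they carry any saturation of Alb. In Fah off livers the log2 ratio to Alb changed by -4.16 for Mug1, -1.33 for Hrg, -0.62 and -1.39 for the Vtn probe sets 1420484_a_at and 1455098_a_at and -0.32 for Ahsg, and in these 5 cases the Fah off arrays (n = 3) did not overlap the normal arrays (n = 4). The same ratio moved by -0.12 for Rbp4, by -0.07, -0.06 and -0.19 for the Ttr probe sets and by 0.29 for Fetub, with overlap between the groups. In Fah p21 off livers (n = 2) it changed by -3.11 for Mug1, -1.07 for Hrg, -0.25 and -0.98 for Vtn, -0.29 for Rbp4, -0.22 for Ahsg and -0.07 for 1454608_x_at of Ttr without overlap. It moved by -0.07 and -0.01 for the other Ttr probe sets and by -0.15 for Fetub, with overlap. No test was made of these ratios. The share of all probe sets whose ratio to Alb did not overlap was not computed, so the cases without overlap have no background here.

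The calls of Alb, Rbp4 and all 3 probe sets of Ttr ended under at least 1 other scaling, and in Fah p21 off livers so did those of Ahsg, Fetub and 1420484_a_at of Vtn. Ttr 1455913_x_at kept its call in Fah off livers with quantile normalization but not with scaling to the 50 brightest (-0.16, adjusted p = 0.157). Quantile normalization left 6 probe sets lower in Fah off livers (Mug1, Hrg, both of Vtn, Ahsg and 1455913_x_at of Ttr) and 3 in Fah p21 off livers (Mug1, Hrg and 1455098_a_at of Vtn). Of all 15309 probe sets tested, 2731 and 2167 were then lower and 2932 and 2327 higher. Setting each array to the mean log2 signal of the 50 brightest probe sets outside these genes, a choice made after the data were seen, left 5 and 3. Of all probe sets tested, 1020 and 637 were lower with that choice and 6721 and 8157 higher. Under that scaling the median of all probe sets was 0.43 in Fah off and 0.63 in Fah p21 off livers. The shift is nearly alike for probe sets far above the offset and smaller for dim ones. It therefore changes the place of a carrier relative to the others little. Mug1 ranged over all alternatives between -4.80 and -4.10 in Fah off livers and between -3.83 and -3.10 in Fah p21 off livers, and Hrg between -1.82 and -1.31 and between -1.82 and -1.07, each past the threshold in all.

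**Figure D4:**
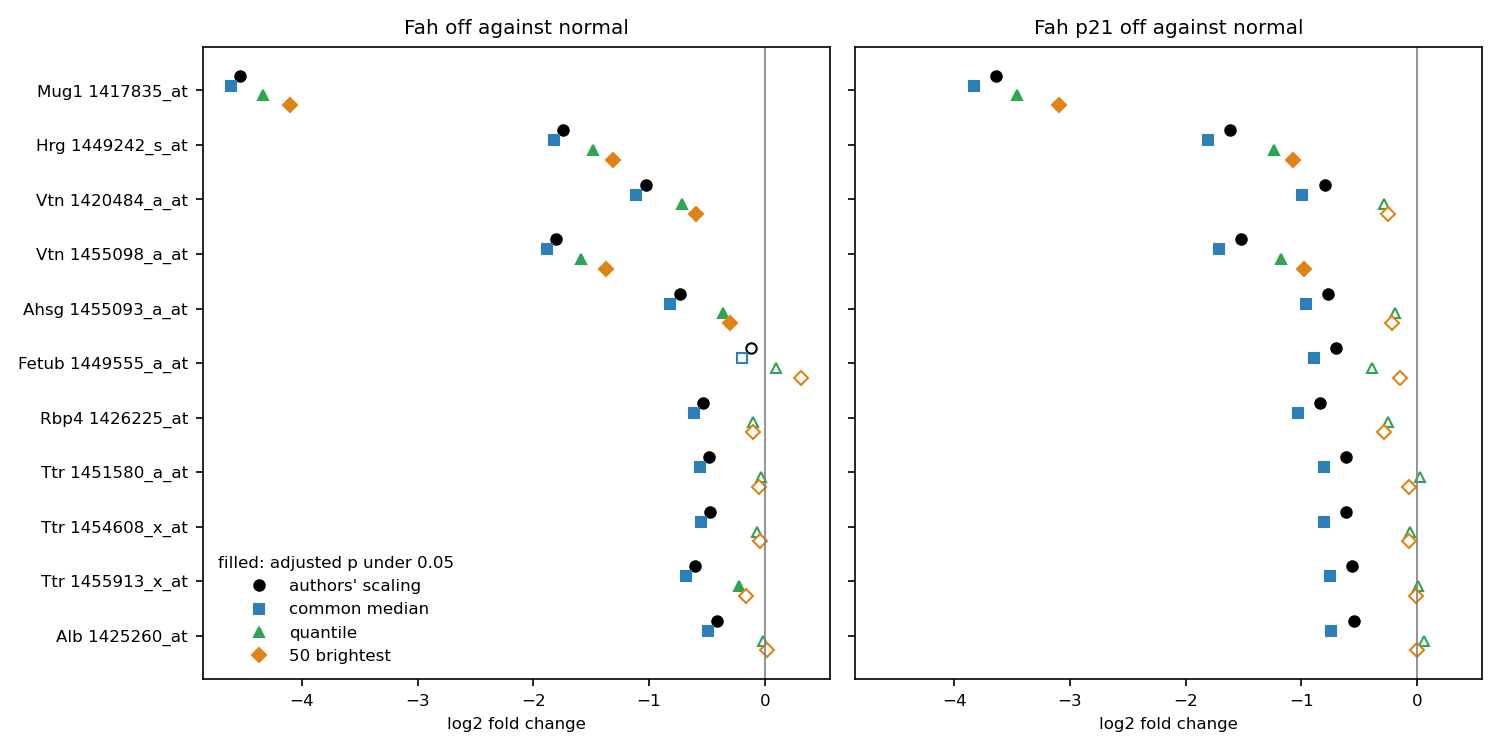
Log2 fold change of each probe set against normal livers under 4 scalings of the 430A arrays, for Fah off livers (left) and Fah p21 off livers (right). Filled symbols passed an adjusted p under 0.05. Mug1, Hrg and 1455098_a_at of Vtn are filled under all 4, whereas Alb and 1451580_a_at of Ttr lie near 0 and are open under quantile and brightest-50 scaling.

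The 430 2.0 arrays gave a further pair of Fah p21 off livers, numbered 3 and 4, against a single normal liver, with 1 residual degree of freedom among samples. There 3 of 12 probe sets were lower, where 11.5% of all passed, 3.8% as lower and 7.71% as higher. By representatives 2 of 8 genes were lower, against 4.91% of all genes lower and 9.11% higher, 14% in all. Both Fah p21 off livers were below the normal liver at 11 of the 12, as at 35.8% of all probe sets, with 44% on the higher side. Mug1 was at 2074 and 1667 in Fah p21 off livers, against 19695 in the normal liver (-3.40 ± 0.24, adjusted p = 0.000498). Hrg was at 6747 and 7559.8, against 15426 (-1.11 ± 0.23, adjusted p = 0.0234). The Vtn probe set 1455098_a_at was at 3612 and 4692, against 13848 (-1.75 ± 0.25, adjusted p = 0.00638), and 1420484_a_at at 8055 and 9731, against 15802 (-0.84 ± 0.24, adjusted p = 0.0711). The call of Hrg ended with no filter (adjusted p = 0.121), with median scaling (0.105) and without the trend (0.143), and that of 1455098_a_at with no filter (0.0606) and without the trend (0.0792), while 1420484_a_at passed with quantile normalization (-0.65, adjusted p = 0.0134).

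The remaining probe sets of 430 2.0 did not pass. Ahsg was at 11400 and 13312.5 in Fah p21 off livers, against 18340.2 in the normal liver (-0.57 ± 0.24), Fetub at 6065 and 6675, against 8808 (-0.47 ± 0.22), and Rbp4 at 15249.8 and 16275, against 18701 (-0.25 ± 0.23). Alb was at 20863 and 21075.5 in Fah p21 off livers, against 21561 in the normal liver (-0.04 ± 0.23). The 4 Ttr probe sets lay between 20607 and 23301 in Fah p21 off livers, against 22213 to 24086 in the normal liver, with changes between -0.14 and -0.02. The 50 brightest other probe sets shifted by -0.09 on these arrays, against -0.55 for Fah p21 off against normal livers on 430A. The 50 were picked on each array design apart and are not all the same probe sets. For Fah p21 off 1 and 2 against normal 4 alone, the closest match on 430A, the Alb change was -0.49 and that of Mug1 -3.72. Both designs share that control mouse, if equal replicate numbers mean the same mouse, and were scaled separately.

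Within the normal group the genes differed little between its 4 conditions, each of 1 mouse, and no test was made. The ratio of the highest to the lowest normal signal was 1.05 to 1.24 for all probe sets but that of Fetub, where it was 1.41 with the Fah knockout on NTBC highest. Relative to the wildtype mean, Rbp4 was at -0.18 log2 units and Ahsg at -0.13 in the double knockout on NTBC, and Hrg at 0.20. Mug1 was at -0.14 in the Fah knockout on NTBC and at 0.06 in the double knockout on NTBC.

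Other carrier and binding proteins of plasma, a list of 29 genes of which 25 were tested, were mostly lower too, with 21 lower, 2 higher and 2 not passing in Fah off livers and a median of -0.90, where 16.5% of all genes were lower and 19.7% higher. Afp, the fetal relative and gene neighbour of Alb, was at 6574 to 11848 in Fah off livers, against 61.4 to 135.2 in normal livers (6.31 ± 0.26, adjusted p = 6.59e-08). Afm, the vitamin E binding relative of Alb, changed the other way, with 245.2 to 632.7 in Fah off livers, against 4771 to 5898 in normal livers (-3.54 ± 0.27). Itih1 (-3.84 ± 0.15), a heavy chain that is carried onto hyaluronan, and Proz (-3.09 ± 0.19), a cofactor that inhibits factor Xa, also fell. In Fah p21 off livers 22 of the 25 were lower and 2 higher (11.5% and 17.8% of all genes), with Afp at 5.82 ± 0.30, Itih1 at -3.28 ± 0.16, Igfals, the carrier subunit of the IGF complex, at -2.95 ± 0.26 and Proz at -2.73 ± 0.22. Between the groups off NTBC 1 of the 25 passed, as lower, against 0.0109% of all genes lower and 0.0326% higher. It was Igfbp2, which binds IGFs and was at 825.2 and 1262 in Fah p21 off livers, against 2664 to 4733 in Fah off livers (-1.72 ± 0.24, adjusted p = 0.0473). The number of calls in this comparison changed with the processing, as given below.

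Of 20 genes that handle retinoids, thyroid hormone and vitamin D, 13 were tested, and 4 were lower, 3 higher and 6 did not pass in Fah off livers, with a median of -0.49, where 16.5% of all genes were lower and 19.7% higher. Dio1, the deiodinase that activates thyroxine, was at 154.3 to 198.7 in Fah off livers, against 1737 to 2701 in normal livers (-3.47 ± 0.27, adjusted p = 4.25e-06). The retinoid X receptor gene Rxra fell (-1.51 ± 0.20), whereas Bco1, which cleaves beta-carotene, rose (1.42 ± 0.20), as did Lrat (2.64-fold), which esterifies retinol for storage and is a stellate cell marker as well. Among the same 13 genes, 4 were lower and 3 higher in Fah p21 off livers (11.5% and 17.8% of all genes), with a median of 0.14, Dio1 at -2.64 ± 0.31 and Lrat at 1.47 ± 0.24.

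Of 18 receptors and binding partners of the carriers, 13 were tested, with 4 lower and 2 higher in Fah off livers (16.5% and 19.7% of all genes) and a median of -0.08. The urokinase receptor gene Plaur, whose product binds vitronectin, rose (1.42 ± 0.21), with 310 to 500.3 in Fah off livers, against 119.3 to 160.7 in normal livers. Plasminogen (Plg), a ligand of Hrg, fell (-1.21 ± 0.09), as did Lrp1 (-1.26 ± 0.25), the receptor that clears protease complexes of the alpha-2-macroglobulin family, and the asialoglycoprotein receptor subunit Asgr2 (-0.88 ± 0.13). The double knockouts off NTBC had 5 lower and 3 higher (11.5% and 17.8% of all genes) and a median of -0.26, with Plaur 2.64-fold higher.

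Markers of hepatocytes and of other cells were read beside the carriers, against 16.5% of all genes lower and 19.7% higher in Fah off livers and 11.5% and 17.8% in Fah p21 off livers. All 10 tested hepatocyte markers were lower in Fah off livers and 9 in Fah p21 off livers, and their summed signal was 71210 to 78890 in Fah off and 68851 to 71638 in Fah p21 off livers, against 125673 to 134657 in normal livers. Cyp2e1 is among these markers, and the limit of array scale given above applies to the bright ones as well. All 5 tested of 8 cholangiocyte markers on the array were higher in both, with sums of 1311 to 1395 in Fah off and 1273 to 2020.5 in Fah p21 off livers, against 173.8 to 333.5 in normal livers. Of 9 macrophage markers 4 were higher in Fah off and 5 in Fah p21 off livers, with sums of 8632 to 10587 and 11124 to 11546, against 5222.5 to 9375 in normal livers. Of 8 stellate cell markers, Lrat among them, 1 was higher in Fah off and 4 in Fah p21 off livers, with sums of 1995 to 4346 and 4718 to 4740.3, against 1946.5 to 2445 in normal livers. Of the 3 lymphocyte, 2 neutrophil and 1 pancreas markers tested, 0 passed by limma, no adipose marker was tested, and 1 of 7 endothelial markers was higher in each group. The 1 erythroid marker tested was lower in both. No marker on the arrays was listed at 0. Their part in the falls was not tested.

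The genes whose log2 signal over the 9 arrays of 430A followed a carrier most closely were read as a description, since arrays of 3 groups set most of such a correlation. For Mug1, with the largest fall, they were the prothrombin gene F2 (Pearson r = 0.998), Cyp4v3 (0.996) and the complement gene C8g (0.996). For Alb they were Hpd (0.994), an enzyme of tyrosine breakdown upstream of Fah that NTBC inhibits, Cyp2d10 (0.991) and the apolipoprotein gene Apoc1 (0.989). For Fetub, with the smallest change in Fah off livers, they were the aquaglyceroporin gene Aqp9 (0.924), Mtarc2 (0.915) and Dennd10 (0.898).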

How the data were processed

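Mouse liver RNA was measured in 12 samples, of which 9 were run on 430A arrays and 3 on 430 2.0 arrays. The deposited values are linear intensity signals of whole probe sets. Per the submitters' processing notes, the authors used MAS5 and GCOS 1.4.0.036. Arrays had been scaled already, as the trimmed mean (2nd to 98th percentile) of each lay between 348.2 and 349. Samples were grouped by their titles. Where the titles call arrays biological replicates, nothing more is said of their source, and the number of arrays limits the precision.

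Signals were taken to log2(signal + offset), the offset being the 10th percentile of a table (9.8 and 3.8). Control probe sets (64 per design) were left out, and a probe set was tested if it reached the 40th percentile of the array on 2 arrays or more, which left 15309 and 26925. Each table had 1 fit over all its arrays (R 4.3.3, limma 3.58.1, with a trended eBayes after lmFit), with 6 and 1 residual degrees of freedom. The fit was tested on simulated data with independent normal noise and no shift between arrays, so that test does not bear on the shift of the brightest signals. Figures were drawn with matplotlib 3.10.9 in Python 3.11.15.

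Symbols came from GEO's platform annotation, updated by Entrez identifier through the gene table of GRCm38.p6 (20364 and 34754 probe sets matched). That gene table served for names, for neighbours and for the gene start at which the Mug1 window was cut. A single symbol was given for 20380 probe sets of 430A (691 had several, 1555 none) and for 34945 of 430 2.0 (932 several, 9160 none). Each gene was represented by the probe set with the highest mean log2 signal. Every probe set of the carriers is reported. From each other gene list up to 4 genes with the largest changes among those that passed, or the 2 of smallest p where fewer than 2 passed, could be named, and for 3 carriers the 3 genes of highest correlation. The carriers and the lists were chosen with earlier results of these data known. Alternatives were no filter or the 60th percentile, an offset of 1 or the 25th percentile, quantile and median scaling, no trend, robust fits, a 2-fold minimum, leaving out carriers above the 99th percentile of every array, each array left out in turn, a replicate block, and wildtype or genotype-matched controls. Scaling to the 50 brightest other probe sets was added after seeing the data. No pair of arrays shared more than 0.426% identical signals.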

Additional observations from a re-analysis of the deposited data

How the results depend on the processing

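Of the values per carrier probe set under the alternatives, 224 of 242 kept their direction and their side of the threshold for Fah off against normal, 215 of 242 for Fah p21 off against normal, 210 of 220 for Fah p21 off against Fah off and 70 of 84 on 430 2.0. The count of carrier probe sets lower in Fah off livers was 6 with quantile normalization, 5 with scaling to the 50 brightest, 4 with a 2-fold minimum and 4 without the very bright probe sets, and in Fah p21 off livers 3, 3, 3 and 5. The last count was lower because only the probe sets of Mug1, Hrg, Vtn and Fetub were then counted, of which Fetub alone did not pass in Fah off livers. Counts of all probe sets lower under the first 2 settings are given above. For the 2-fold minimum only a count of both directions together is given, below. Leaving out each array gave 10 and 10 to 11. On 430 2.0 it was 1 with no filter and 1 without the trend.

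Over all probe sets 2270 and 2138 passed at 2-fold or more in Fah off and Fah p21 off livers, and 3281 and 2355 with only the genotype-matched array as control. With the 50 brightest scaling 8794 passed in Fah p21 off livers, and leaving out each array gave 4309 to 5246 and 2478 to 4636, the lowest of the second range without Fah p21 off 1 and 2563 without Fah p21 off 2. On 430 2.0 the count was 1002 with no filter and 1225 without the trend. For Fah p21 off against Fah off, where 6 passed, it was 1 at the 60th percentile, 1 with offset 1, 14 with the 25th percentile offset, 3 with median scaling, 13 without the trend, 2 with robust fits, 11 with the 50 brightest scaling and 1 to 58 with an array left out (58 without Fah p21 off 1). With the replicate block it was 1, and the block changed no carrier's call. No paired analysis was possible on 430 2.0 because its groups share fewer than 2 numbers. Deviations of 430A arrays with the same number correlated between -0.28 and 0.07. Arrays of unlike number were not compared in this way, so these values do not settle whether the numbers pair the arrays. The main fit used no pairing. Of the calls 56.7% were higher in Fah off and 62.4% in Fah p21 off livers, and 51.8% and 51.8% with quantile normalization, 48.1% and 43.2% with median scaling, and 86.8% and 92.8% with the 50 brightest scaling.

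Signs turned as follows. With quantile normalization Fetub was at 0.10 in Fah off livers. Alb was then at 0.056, Ttr 1451580_a_at at 0.023 and Ttr 1455913_x_at at 0.0056 in Fah p21 off livers. In Fah p21 off against Fah off livers Alb was at 0.068, Ttr 1451580_a_at at 0.058, Ttr 1454608_x_at at 0.0041 and Ahsg at 0.17. On 430 2.0 Alb was at 0.080, and 1451580_a_at, 1454608_x_at and 1459737_s_at of Ttr at 0.019, 0.11 and 0.075. With the 50 brightest scaling Alb was at 0.022 and Fetub at 0.31 in Fah off livers, Ahsg at 0.082 in Fah p21 off against Fah off livers, and on 430 2.0 Alb was at 0.052 and 1454608_x_at and 1459737_s_at of Ttr at 0.074 and 0.044. With median scaling Ttr 1455913_x_at was at -0.074 in Fah p21 off against Fah off livers. With an array left out Fetub ranged from -0.22 to 0.031 in Fah off livers, the highest without Fah off 2. In Fah p21 off against Fah off livers Hrg ranged from -0.077 to 0.32, Ahsg from -0.10 to 0.012 and Ttr 1455913_x_at from -0.047 to 0.086. The cause was not tested. The lowest carrier signal on 430A was that of Mug1, 239.5 in Fah off 3, where the Fah probe set still read 107.5. Whether background limits the low Mug1 signals was not tested. The brightness of Alb and Ttr limits what their changes can show.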

Other observations

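Transcription factors of hepatocytes, a list of 17 genes with 14 tested, were lower for 7 and higher for 0 in Fah off livers (16.5% and 19.7% of all genes) and lower for 8 and higher for 0 in Fah p21 off livers (11.5% and 17.8%), with medians of -0.49 and -0.66. Cebpa, a factor of the C/EBP family, was at 2237 to 2641 in Fah off livers and 2031 and 2566 in Fah p21 off livers, against 4988 to 5276 in normal livers (-1.07 ± 0.11 and -1.16 ± 0.13). The clock output factor Dbp fell (-2.15 ± 0.39 and -1.90 ± 0.45), although the normal livers alone spread between 359.6 and 1491. Onecut1 (-1.62 ± 0.36 and -1.28 ± 0.41) and, in Fah off livers, Foxa3 (-0.92 ± 0.14) fell as well, and Nr5a2 fell in Fah p21 off livers (-0.95 ± 0.22). Between the groups off NTBC 0 of the 14 passed by limma, the smallest p being that of Nr5a2 (-0.48 ± 0.23, adjusted p = 0.644).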
